A study of Mus musculus with 36 samples.

Results

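The RNA of HPC-1, a progenitor population of bone marrow (BM), was compared between mice with and without *Il27ra*, which encodes the ligand-binding chain of IL-27R (receptor of interleukin 27), after infusion of angiotensin II (Ang II). The comparison used 7 of the 36 libraries of the series, chosen by their labels: 4 libraries of *Apoe*-/-*Il27ra*-/- HPC-1 (IL-27R-deficient) and 3 of *Apoe*-/- HPC-1 (IL-27R-sufficient), all from Ang II-infused mice. The mice of both groups lacked apolipoprotein E on a C57BL/6 background, were fed a Western diet for 12 weeks from the age of 8 weeks and received Ang II for the last 2 weeks. Each sample held 5000 sorted cells. The deposited labels call these cells ST-HSC, and the methods of the study define HPC-1 as lineage-negative Sca-1+c-kit+ cells with CD48 and without CD150. A supplementary legend of the study gives 2 *Apoe*-/- and 3 *Apoe*-/-*Il27ra*-/- mice, fewer than the libraries here. No source says whether a library was 1 mouse or a pool. The main p-values below set a difference against the spread between libraries, estimated over all 19 HPC-1 libraries of the series. Whether this equals the spread between mice is not known.

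HPC-1 lie downstream of LT-HSC, the long-term stem cells of blood, and hold multipotent progenitors that are biased toward myeloid or lymphoid fates. IL-27R pairs this chain with gp130, encoded by *Il6st*, and signals through JAK kinases. Ang II raises blood pressure and drives aneurysm formation in mice without apolipoprotein E, a setting in which the output of myeloid cells from the BM is increased.

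Library totals were 3517996, 3412686 and 2319520 counts in IL-27R-sufficient replicates 1 to 3 and 3523523, 2857301, 3722262 and 5212330 counts in IL-27R-deficient replicates 1 to 4. All levels below are CPM (counts scaled to a common library size, normalized by TMM), and a level of 3 counts was taken as the limit of detection (0.559 to 1.29 CPM in these libraries, counting error only). IL-27R-sufficient replicate 3 was the shallowest library and stood apart from the rest. Across the 13199 genes tested, its log2 CPM had a mean correlation of 0.855 with the other IL-27R-sufficient libraries, which in turn had mean correlations of 0.939 and 0.945 with the IL-27R-deficient libraries. The genders were not balanced either. *Ddx3y*, a Y-linked gene, was at 86.6, 67.2 and 125 CPM in IL-27R-sufficient and at 87.8, 93.98, 70.97 and 0 CPM in IL-27R-deficient HPC-1, and *Xist*, transcribed from the inactive X chromosome of females, was at 14.2, 12.6 and 3.44 CPM against 1.66, 0.342, 0.548 and 3626 CPM. IL-27R-deficient replicate 4 thus carried female RNA and the other 6 libraries male RNA.

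Markers of the sorting gate were checked first. *Kit*, which encodes c-kit, was at 826, 668 and 649 CPM in IL-27R-sufficient and at 789, 696, 612 and 606 CPM in IL-27R-deficient HPC-1. *Cd48* was at 60.1, 55.2 and 58.9 CPM against 67.4, 79.6, 75.1 and 42.9 CPM. *Slamf1*, which encodes CD150, was at 1.74, 1.53 and 8.17 CPM against 2.21, 0, 0.548 and 1.49 CPM. *Kit* and *Cd48* were detected in every library, and *Slamf1* was at or near the limit of detection in all but IL-27R-sufficient replicate 3. On a scale normalized over both cell types, *Cd48* had a median of 62.0 CPM in these 7 libraries and 0.440 CPM in the 10 Ang II LT-HSC libraries, whereas *Slamf1* had medians of 1.59 and 43.2 CPM. The transcript of the remaining marker of the gate, *Ly6a* (Sca-1), was low in HPC-1, at 4.36, 2.76 and 8.17 CPM against 6.90, 14.4, 3.29 and 3.73 CPM. Of the 6 gate genes *Flt3* alone had an unadjusted p under 0.05 between the genotypes (list median 0.10), beside 5.01% of all genes tested. The stem cell genes *Mecom* and *Vwf*, with medians of 268.2 and 389.6 CPM in LT-HSC, had medians of 21.2 and 3.73 CPM in these HPC-1 libraries.

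*Il27ra* (mm10 chromosome 8, 84030294 to 84042589, minus strand) was at 9.88, 8.59 and 6.02 CPM in IL-27R-sufficient and at 6.35, 5.81, 4.38 and 8.57 CPM in IL-27R-deficient HPC-1. The groups overlapped, and every library was above its limit of detection. The log2 fold change of IL-27R-deficient against IL-27R-sufficient HPC-1 was −0.38 (SE 0.463, and adjusted p = 0.969 in the quasi-likelihood test of edgeR). In Ang II LT-HSC, on the scale of both cell types, the *Apoe*-/- libraries had *Il27ra* at 42.9 and 51.8 CPM and the *Apoe*-/-*Il27ra*-/- libraries at 16.3, 11.7, 16.2 and 19.3 CPM, without overlap (log2 fold change −1.57, adjusted p = 0.0295 by edgeR). In HPC-1 the level of *Il27ra* does not tell the genotypes apart, and counts by exon are not in the deposited table. *Il6st*, the partner chain, was at 109.8, 104 and 141 CPM against 171, 178, 140.0 and 132 CPM, with IL-27R-deficient replicates 1 and 2 above every IL-27R-sufficient library and replicates 3 and 4 within their range (log2 fold change 0.39, SE 0.189, unadjusted p = 0.0494 by edgeR). Of 17 tested genes of the IL-27R and JAK-STAT pathway, *Il6st* alone had an unadjusted p under 0.05, near the share of 5.01% over all genes tested, and the list had a median log2 fold change of 0.21, beside 0.00 over all genes tested.

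With edgeR and Benjamini-Hochberg adjustment over all 13199 genes, 0 genes (0%) passed an adjusted p of 0.05. At an unadjusted p under 0.05 there were 661 genes (5.01%), 277 higher in IL-27R-deficient HPC-1 (2.1% of those tested) and 384 lower (2.91%). This split depended on the processing, with 316 higher and 317 lower under upper-quartile scaling, 145 and 137 without IL-27R-sufficient replicate 3 and 532 and 469 without replicate 2. The libraries of the groups did not overlap for 811 genes (6.14%), of which 445 (3.37%) were higher and 366 (2.77%) lower in IL-27R-deficient HPC-1. Limma-voom with sample weights, which gives less weight to libraries that deviate, called 39 genes (0.295%), 4 higher (0.0303%) and 35 lower (0.265%), and DESeq2 called 2. Of the 35 lower genes 12 belong to the intestinal genes described below, which the filter on low counts could keep through the libraries in which they are high. The other 23 were not all of another kind. Among them were *Muc3* (−4.86) and *Clca3b* (−3.98, log2 fold changes by limma-voom), of the same families as *Muc2* and *Clca1* of that list. The differences between the genotypes described next are therefore not calls by the main edgeR fit. The 12 genes per direction named by the smallest p were taken only from genes without overlap between the groups. Lack of overlap is therefore no result for them, among others for *Dntt*, *Hoxa9*, *Mn1*, *Rgl1*, *Il1rl1*, *Adgrl1* and *H2-Q6*. Fold changes are those of IL-27R-deficient against IL-27R-sufficient HPC-1, and a difference in a bulk sample cannot tell fewer cells of a type from less RNA per cell.

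Among the genes higher at an unadjusted p under 0.05 were several that early lymphoid cells express. *Dntt* (chromosome 19, 41029275 to 41059525, plus strand), which encodes the terminal transferase of early lymphoid cells, was at 35.7, 31.3 and 88.5 CPM in IL-27R-sufficient and at 215, 328, 118 and 307 CPM in IL-27R-deficient HPC-1. The groups did not overlap, with means of 51.9 ± 31.8 CPM (SD, n = 3) and 242 ± 96.2 CPM (SD, n = 4), and the log2 fold change was 2.24 (SE 0.557, adjusted p = 0.7 by edgeR and 0.00305 by limma-voom). *Flt3*, the cytokine receptor of lymphoid-primed progenitors, was at 260.1, 198 and 254 CPM against 422, 563, 233 and 439 CPM. IL-27R-deficient replicate 3 lay within the IL-27R-sufficient range and the other 3 above it (log2 fold change 0.80, SE 0.325, unadjusted p = 0.0239 by edgeR). *Notch1*, the receptor that directs T lineage commitment, was at 123, 133 and 125 CPM against 192, 271, 119 and 302 CPM. Here too replicate 3 was the low one of the IL-27R-deficient libraries and the groups overlapped (log2 fold change 0.79, SE 0.252). *Satb1*, a chromatin organizer of early lymphoid cells, was at 201, 219.9 and 219 CPM against 301, 374, 232 and 322 CPM, without overlap (log2 fold change 0.53, SE 0.192).

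*Il7r*, which encodes the IL-7 receptor needed for lymphoid growth, was at 0, 1.53 and 0 CPM in IL-27R-sufficient and at 6.63, 2.73, 1.92 and 6.71 CPM in IL-27R-deficient HPC-1. *Arpp21*, a gene of lymphoid progenitors, was at 2.32, 3.07 and 0.43 CPM against 15.2, 40.7, 7.12 and 14.2 CPM (log2 fold change 3.22, SE 0.759, adjusted p = 0.436 by edgeR and 0.0335 by DESeq2). Both genes were higher in all 4 IL-27R-deficient libraries, and *Il7r* was at 0 in IL-27R-sufficient replicates 1 and 3. *Ikzf1*, the transcription factor Ikaros, was at 249, 249 and 174 CPM against 302, 316, 278 and 288 CPM and did not overlap (log2 fold change 0.40, SE 0.151). Of the 18 tested genes of the multipotent progenitor list, 16 had a positive log2 fold change, 6 of them (including *Flt3*, *Notch1* and *Satb1*) with an unadjusted p under 0.05, 0 were lower at that level, and the median was 0.41, beside 2.1% higher and 2.91% lower over all genes tested and a median of 0.00. The B lymphoid list shares *Dntt*, *Il7r* and *Ighm* with it. Of its 20 genes 8 were tested and 7 of these were positive, beside 6664 of all 13199 genes. The filter could keep members such as *Il7r* through the libraries in which they are high, so that this count is no test. The summed level of the list was 125.8, 126.7 and 267.3 CPM in IL-27R-sufficient and 416.1, 510.2, 235.1 and 544.7 CPM in IL-27R-deficient HPC-1. *Dntt* was its most abundant gene per length. IL-27R-deficient replicate 3 again overlapped with IL-27R-sufficient replicate 3. Of the T and NK lymphoid list, 9 of 20 genes were tested and 0 had an unadjusted p under 0.05 (median log2 fold change 0.19). Other lymphoid genes were negative, with *Rag1* at −0.85 and *Thy1* at −0.58, both with overlapping groups.

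Further genes with an unadjusted p under 0.05 were higher in IL-27R-deficient HPC-1. *Hoxa9*, a homeobox gene of stem and progenitor cells, was at 31.1, 46.6 and 26.6 CPM in IL-27R-sufficient and at 52.5, 79.6, 52.9 and 62.4 CPM in IL-27R-deficient HPC-1 (log2 fold change 0.82, SE 0.26). *Hlf*, a transcription factor of stem cells, was at 95.02, 71.1 and 82.9 CPM against 155, 117, 102 and 127 CPM (log2 fold change 0.59, SE 0.283). *Mn1*, a transcriptional co-regulator known from myeloid leukemia, was at 6.68, 3.68 and 2.15 CPM against 16.8, 24.6, 7.67 and 22.7 CPM (log2 fold change 2.07, SE 0.595). None of these 3 genes overlapped between the groups. *Rgl1*, a Ras-related guanine exchange factor, was at 16.9, 15.3 and 18.1 CPM against 37.5, 65.3, 25.2 and 28.9 CPM and did not overlap either (log2 fold change 1.22, SE 0.343). *Esam*, an adhesion molecule of stem cells, was at 5.23, 4.91 and 1.29 CPM against 11.6, 13.3, 5.75 and 7.27 CPM, with IL-27R-sufficient replicate 3 the lowest of all. Of the other 7 genes named as higher by the rule on the smallest p, *Dnal1*, *Sema3d*, *Ssx2ip*, *Sept1*, *Nnt* and *Pag1* had log2 fold changes of 2.95, 2.39, 0.99, 0.91, 0.86 and 0.73, and *Osgin1* was at 0, 0 and 0 CPM against 0.828, 8.20, 1.37 and 1.68 CPM, with IL-27R-deficient replicate 2 far above the rest. Besides *Dntt*, limma-voom called *Gmfg* (log2 fold change 0.44 by edgeR), *Cnn3* (0.58, overlapping) and *St8sia1*, which was at 0, 0 and 0 CPM against 2.76, 1.37, 0.822 and 1.12 CPM. The edgeR value of *Cnn3* depended on single libraries, with 1.37 without IL-27R-sufficient replicate 3 and 0.32 without replicate 1.

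The stem cell list as a whole was mixed. Of its 19 tested genes 11 were positive and 8 negative, and the median was 0.17. At an unadjusted p under 0.05, 3 were higher and 1 (*Ctnnal1*) was lower, beside 2.1% higher and 2.91% lower over all genes tested.

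**Figure D1:**
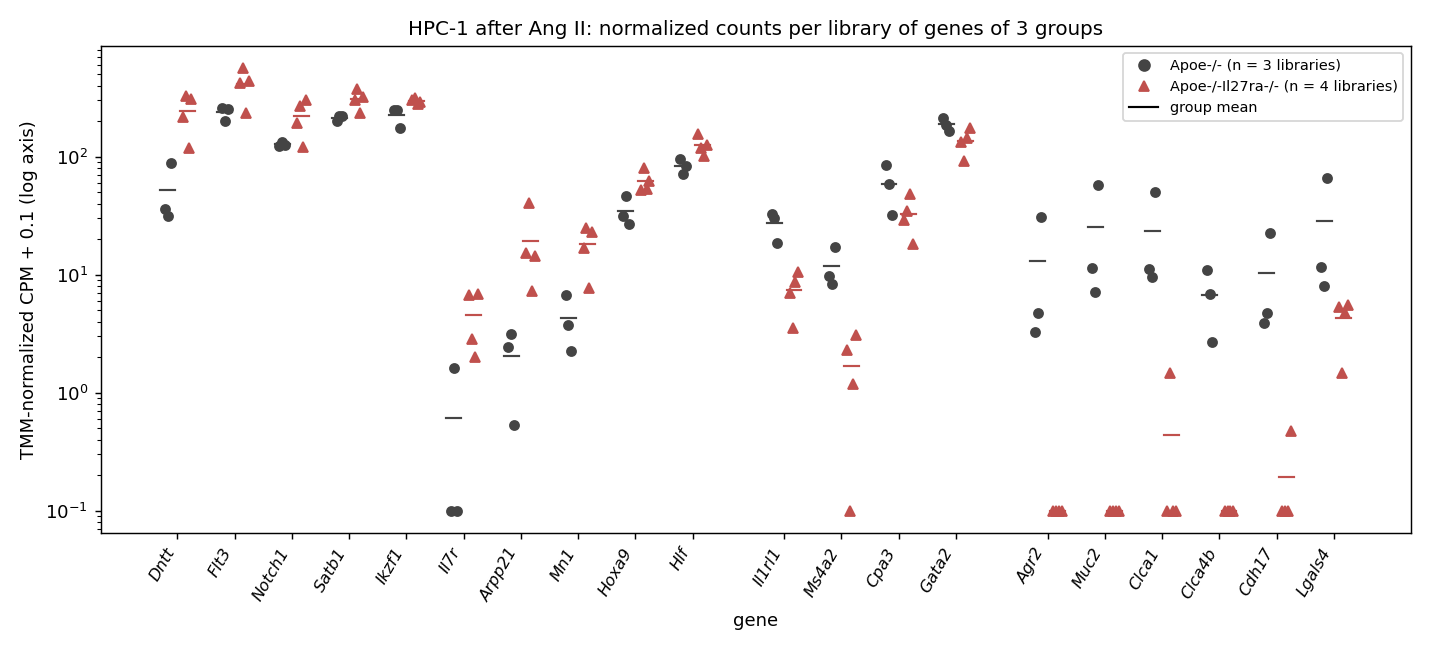
Normalized counts per library of 20 genes in Ang II HPC-1 (CPM + 0.1, log axis), with 3 IL-27R-sufficient (circles) and 4 IL-27R-deficient libraries (triangles) and the mean of each group (bars). *Dntt* was at 31.3 to 88.5 CPM in IL-27R-sufficient and at 118 CPM or more in IL-27R-deficient libraries, and *Agr2* had no count in any IL-27R-deficient library.

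Some genes of mast cells and basophils were lower in IL-27R-deficient HPC-1. *Il1rl1*, which encodes the IL-33 receptor ST2, was at 32.8, 30.1 and 18.5 CPM in IL-27R-sufficient and at 6.90, 3.42, 8.49 and 10.4 CPM in IL-27R-deficient HPC-1. The groups did not overlap (log2 fold change −1.87, SE 0.466, adjusted p = 0.476 by edgeR and 0.00934 by limma-voom). *Ms4a2*, the β chain of the high-affinity IgE receptor, was at 9.59, 8.28 and 17.2 CPM against 2.21, 0, 1.10 and 2.98 CPM, again without overlap (log2 fold change −2.82, SE 1.07). *Cpa3*, the mast cell carboxypeptidase, was at 84.6, 58.9 and 31.8 CPM against 28.7, 34.9, 48.2 and 18.1 CPM, and *Gata2*, a transcription factor of stem cells and mast cells, was at 213, 185 and 165 CPM against 134, 91.2, 142 and 173 CPM. Both overlapped, *Cpa3* through IL-27R-deficient replicates 2 and 3 and *Gata2* through replicate 4. Of the 20 genes of the eosinophil, mast cell and basophil list 11 were tested, with a median log2 fold change of −0.47. At an unadjusted p under 0.05, 4 were lower and 0 higher, beside 2.91% lower and 2.1% higher over all genes tested. The members with a positive log2 fold change were *Prg2* (1.67), *Alox5* (0.12) and *Hdc* (0.10). The summed level of the list was 394.9, 348.7 and 304.3 CPM in IL-27R-sufficient and 217.3, 231.0, 251.8 and 245.2 CPM in IL-27R-deficient HPC-1, with *Gata2* the most abundant gene per length.

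Erythroid and megakaryocytic genes varied with the library. *Tfrc*, the transferrin receptor, was at 217, 217 and 175 CPM in IL-27R-sufficient and at 127, 152, 191 and 121 CPM in IL-27R-deficient HPC-1, and overlapped only through replicate 3 of each group (log2 fold change −0.46, SE 0.187, adjusted p = 0.954 by edgeR and 0.0422 by limma-voom). Of 19 tested erythroid genes, 12 were negative and 7 positive (median −0.30), and *Tfrc* was the 1 gene with an unadjusted p under 0.05, a share near the 5.01% of all genes tested. *Ermap*, an erythroid membrane protein, was at 54.0, 25.5 and 58.5 CPM against 3.59, 5.13, 4.11 and 37.3 CPM, and *Klf1*, an erythroid transcription factor, was at 17.7, 7.97 and 15.9 CPM against 1.38, 1.03, 1.37 and 18.3 CPM. *Klf1* also lies 0.867 Mb from *Il27ra*, among the neighbours of that gene described below. In both genes the male IL-27R-deficient libraries were low. The female replicate 4 was within the IL-27R-sufficient range for *Ermap* and slightly above it for *Klf1*. DESeq2 on the compared groups with Y-linked expression called *Ermap* lower (log2 fold change −3.46, adjusted p = 1.87e-09) and *Klf1* lower (−3.48, adjusted p = 0.000526), and edgeR did not (−1.82 and −1.27). That covariate sets the female replicate 4 apart from the male libraries. Both genes were picked out after their values were seen, so that these calls are no separate test of the pattern. The globin genes *Hba-a2* and *Hbb-bs* were positive and overlapped, at 1.45 and 1.27 with all libraries and at 0.59 and 0.12 without IL-27R-deficient replicate 2. Of 15 tested megakaryocyte genes, *Gp1ba* and *Treml1* were lower at an unadjusted p under 0.05, beside 2.91% of all genes tested, and the median was −0.28. *Gp1ba*, a subunit of the platelet receptor for von Willebrand factor, was at 11.3, 10.4 and 49.00 CPM against 9.94, 4.10, 4.93 and 7.64 CPM, with IL-27R-sufficient replicate 3 several-fold above the other 6 libraries.

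Most myeloid genes overlapped between the genotypes. *Mpo*, the myeloperoxidase of granulocyte precursors, was at 3998, 5187 and 5591 CPM in IL-27R-sufficient and at 4949.5, 4433, 5708 and 3187 CPM in IL-27R-deficient HPC-1 (log2 fold change −0.11, SE 0.237). *Elane*, neutrophil elastase, was at 75.5, 129 and 141 CPM against 208, 179, 234 and 57.4 CPM, both the lowest and the highest value being in IL-27R-deficient libraries. Of 17 tested granulocyte genes, 0 had an unadjusted p under 0.05 in either direction (median 0.18), beside 5.01% of all genes tested. *Ly6c2*, the Ly6C antigen of monocytes, was at 5.23, 12.9 and 5.59 CPM against 64.3, 39.98, 41.7 and 6.71 CPM. The male IL-27R-deficient libraries were far above the IL-27R-sufficient ones and the female replicate 4 was not (log2 fold change 2.25, SE 0.744, unadjusted p = 0.00783 by edgeR). DESeq2 on the compared groups with Y-linked expression called *Ly6c2* higher (2.59, adjusted p = 1.45e-05). That covariate sets apart replicate 4, the IL-27R-deficient library with a low level. The adjusted p was 0.702 by edgeR with this covariate, 0.159 by DESeq2 over all HPC-1 libraries and 0.368 by limma-voom. *Ly6c2* was the only 1 of 14 tested monocyte and macrophage genes with an unadjusted p under 0.05, near the share of 5.01% over all genes tested. Of the 14, 12 were positive, beside 6664 of all 13199 genes, and the median was 0.54. *Csf3r*, the G-CSF receptor, was at 136, 141 and 113 CPM against 156, 155, 149 and 232 CPM, and *Il3ra*, the α chain of the IL-3 receptor, was at 6.10, 6.75 and 4.30 CPM against 12.1, 2.39, 7.40 and 17.3 CPM. *Csf1r*, the M-CSF receptor of the monocyte list, was at 40.7, 55.2 and 57.6 CPM against 83.1, 64.2, 63.0 and 103.04 CPM. *Csf1r* and *Csf3r* did not overlap, but *Csf3r* had IL-27R-deficient replicate 4 far above the others, and *Il3ra* overlapped.

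Many genes of intestinal epithelium were counted in IL-27R-sufficient HPC-1 and at or near 0 in IL-27R-deficient HPC-1. *Agr2* (chromosome 12, 35992907 to 36004087, plus strand), which encodes a protein disulfide isomerase of mucus-secreting cells, was at 3.20, 4.60 and 30.9 CPM against 0, 0, 0 and 0 CPM, at least 16-fold lower when set against 3 counts per library. *Muc2*, the main intestinal mucin, was at 11.3, 7.05 and 57.6 CPM against 0, 0, 0 and 0 CPM, at least 31.3-fold lower. *Clca1*, a secreted protein of goblet cells, was at 11.04, 9.51 and 49.9 CPM against 0, 1.37, 0 and 0 CPM (log2 fold change −6.19, SE 1.43). In all 3 genes IL-27R-sufficient replicate 3 was several-fold above replicates 1 and 2, and without it the bounds were 4.82-fold for *Agr2* and 11.4-fold for *Muc2*. The log2 fold change of *Clca1* was −4.99 without that library, and it rests on IL-27R-deficient replicate 2, which holds the only counts of *Clca1* in that group. *Clca4b*, of the same family as *Clca1*, had the opposite order, at 10.8, 6.75 and 2.58 CPM against 0, 0, 0 and 0 CPM, at least 8.28-fold lower. *Krt20*, an intestinal keratin, was at 4.36, 3.99 and 9.89 CPM against 0, 0, 0 and 0 CPM, at least 7.51-fold lower, and *Lypd8*, a protein of the colon surface, was at 20.05, 11.7 and 45.99 CPM against 0, 0, 0 and 0 CPM, at least 32-fold lower. *Lgals4*, an intestinal galectin, was detected in both groups, at 11.6, 7.97 and 66.2 CPM against 5.25, 1.37, 4.66 and 5.40 CPM (log2 fold change −2.74, SE 0.649). None of these genes passed the adjusted threshold in the main edgeR fit. Without the filter on low counts edgeR called all of them but *Lypd8*, which it called with only the groups compared. Limma-voom called all of them but *Lgals4*.

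Of the 40 genes of this list, 21 had no count in any IL-27R-deficient library, 16 of these were counted in IL-27R-sufficient HPC-1, and 19 had their highest level in IL-27R-sufficient replicate 3. The shares of all genes with these traits are not given, so that the counts describe the list and do not tell whether it is unusual. The filter on low counts kept 21 of the 40, which it could do through the libraries in which they are high, so that no count or median of tested members is given. The defining transcription factors *Cdx1* and *Cdx2* were at 0 in all 7 libraries, as were *Fabp1*, *Guca2b* and *Spdef*. The most abundant gene of the list, *Muc13*, which HPC-1 also express, was at 479, 422 and 343 CPM against 387, 358, 408 and 359.8 CPM and overlapped. Without it the other 39 genes summed to 213.9, 187.4 and 589.7 CPM in IL-27R-sufficient and 55.2, 62.2, 50.7 and 54.4 CPM in IL-27R-deficient HPC-1, so that the groups did not overlap. After PBS the sums were 169.2 and 170.03 CPM with IL-27R (*Apoe*-/-) and 57.3, 109.2 and 56.9 CPM without it (*Apoe*-/-*Il27ra*-/-), PBS *Apoe*-/-*Il27ra*+/- HPC-1 held 56.6, 121.4 and 55.2 CPM, and Ang II *Apoe*-/-*Il27ra*+/- HPC-1 held 83.9, 50.3, 129.98 and 50.7 CPM. In LT-HSC, on the scale of both cell types, the sums were 912.9 and 1061 CPM after Ang II and 637.2 CPM after PBS in *Apoe*-/-, and 52.1 to 236.9 CPM in the 7 *Apoe*-/-*Il27ra*-/- libraries. The part of cells other than HPC-1 in these values was not tested.

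**Figure D2:**
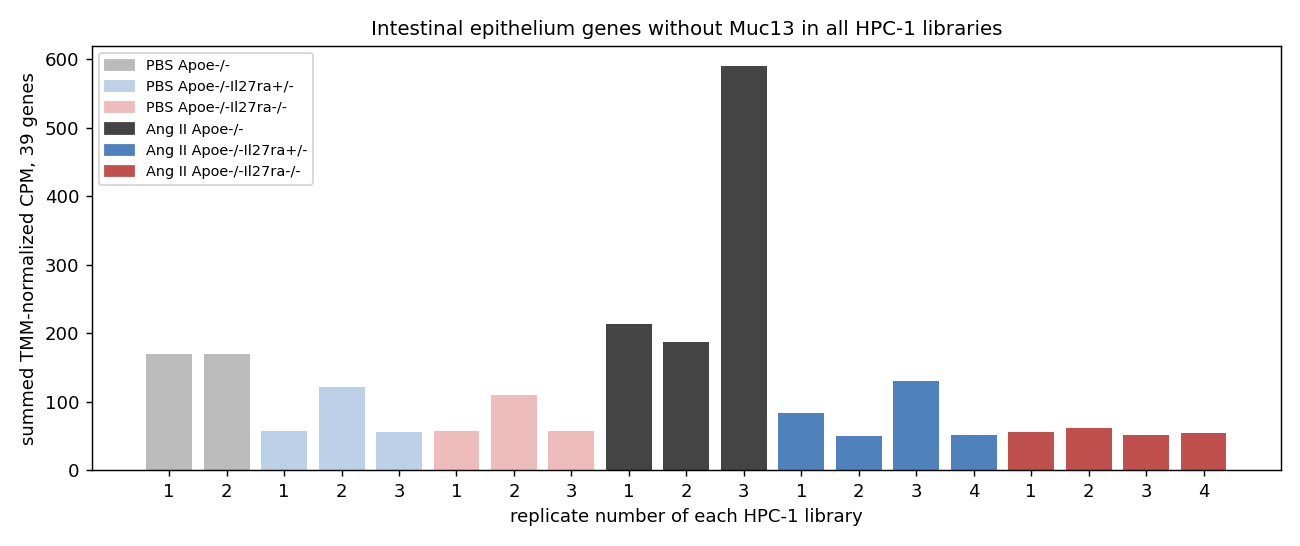
Summed CPM of 39 intestinal epithelium genes, without *Muc13*, in each of the 19 HPC-1 libraries, coloured by genotype and infusion. The 3 IL-27R-sufficient Ang II libraries held 187.4 to 589.7 CPM and the 4 IL-27R-deficient ones 50.7 to 62.2 CPM.

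Several genes that were lower in IL-27R-deficient HPC-1 lie beside *Il27ra* on chromosome 8, which was noticed after the values had been seen. Of 73 tested genes within 2 Mb of *Il27ra*, 11 (15.1%) were lower and 2 higher at an unadjusted p under 0.05, beside 2.91% lower over all genes tested. *Adgrl1*, a latrophilin receptor 0.115 Mb from *Il27ra* (83900105 to 83941954), was at 33.4, 33.7 and 113 CPM in IL-27R-sufficient and at 16.8, 24.9, 23.8 and 17.3 CPM in IL-27R-deficient HPC-1 (log2 fold change −1.53, SE 0.367). *Mri1* (84249906 to 84257326), an enzyme of methionine salvage, was at 40.1, 29.4 and 37.4 CPM against 15.7, 11.6, 16.2 and 24.2 CPM (log2 fold change −1.06, SE 0.292). *Nacc1* (84670483 to 84687862), a BTB domain transcriptional regulator, was at 279.5, 308 and 376 CPM against 180.3, 249.8, 218 and 204 CPM (log2 fold change −0.59, SE 0.164). None of the 3 overlapped between the groups, and *Adgrl1* was more than 3-fold higher in IL-27R-sufficient replicate 3 than in replicates 1 and 2. *Gadd45gip1* (84831522 to 84835482), a mitochondrial ribosome protein, was at 62.5, 76.1 and 53.3 CPM against 28.2, 39.3, 47.7 and 36.5 CPM, and *Farsa* (84856989 to 84869257), a subunit of phenylalanyl-tRNA synthetase, was at 111, 97.2 and 177 CPM against 61.8, 83.04, 93.99 and 71.6 CPM. Both did not overlap. The PBS libraries, which entered the same fit but hold none of the 7 samples, gave the same direction for these 5 genes. There *Gadd45gip1* was at 101 and 96.6 CPM with IL-27R and 31.9, 36.2 and 38.9 CPM without it, and *Mri1* was at 33.5 and 35.2 CPM against 11.1, 16.6 and 19.4 CPM. Of the other neighbours with an unadjusted p under 0.05 after Ang II, *Il15*, *Dand5* and *Trir* changed sign and the rest did not. Their log2 fold changes were −1.15, −2.53 and 0.78 after Ang II and 0.18, 0.02 and −0.36 after PBS. In the PBS comparison 11 of the 73 genes were lower and 1 higher at an unadjusted p under 0.05, beside 462 lower (3.5%) and 403 higher (3.05%) of all 13199 genes. Loss of IL-27R and the chromosomal region that carries the *Il27ra* allele cannot be told apart in these groups.

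**Figure D3:**
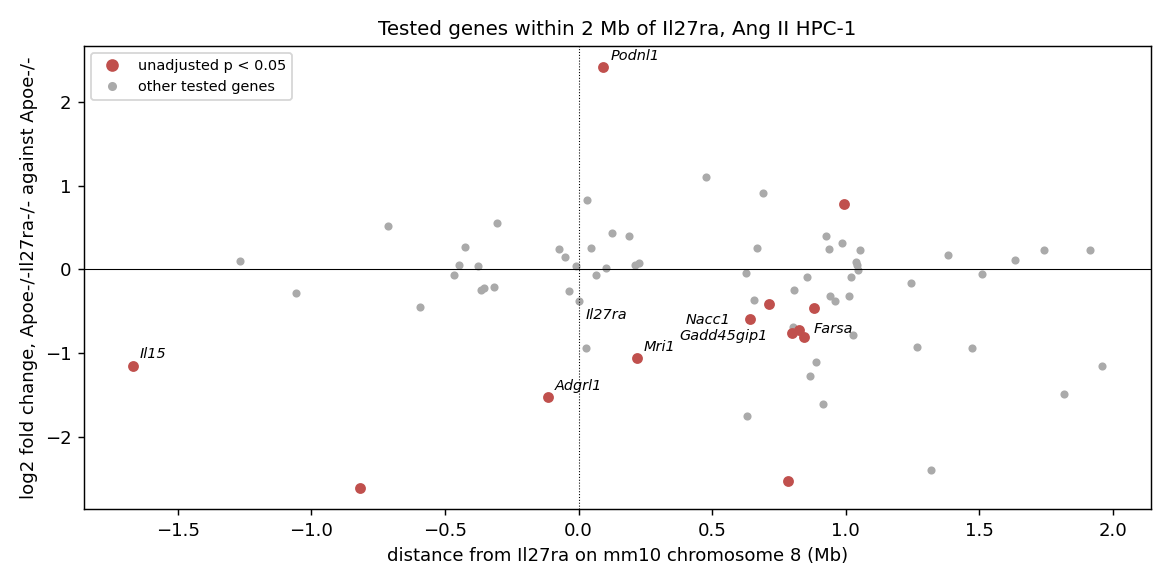
Log2 fold change of IL-27R-deficient against IL-27R-sufficient Ang II HPC-1 (y axis) of the tested genes within 2 Mb of *Il27ra* by distance on chromosome 8 in Mb (x axis). Of the 73 neighbours, 11 were lower and 2 higher at an unadjusted p under 0.05 (red points).

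Interferon and antigen presentation genes, which cytokines that act through JAK kinases can induce, showed no common direction. Of 30 type I interferon-stimulated genes, all tested, 21 were positive, 1 (*Ifit2*) was lower at an unadjusted p under 0.05, and the median was 0.17. Over all genes tested 5.01% had such a p, with which the counts of this and the next lists stand side by side. The 11 tested interferon-induced GTPases had a median of −0.01, and 0 of them had such a p. Of 16 MHC class I presentation genes, *H2-Q7* was lower and *H2-M3* higher at that level (median −0.05). *H2-Q6*, a class Ib gene outside that list, was at 166, 135 and 144 CPM in IL-27R-sufficient and at 82.3, 76.2, 64.9 and 98.2 CPM in IL-27R-deficient HPC-1, without overlap (log2 fold change −0.88, SE 0.206, adjusted p = 0.436 by edgeR and 0.00677 by limma-voom). *H2-Q7* was at 173, 139 and 137 CPM against 78.4, 113, 68.5 and 145 CPM and overlapped through replicate 4. The *H2-Q* genes are near-identical copies, so that their counts could be shared and are uncertain. Of 11 tested MHC class II presentation genes 0 had an unadjusted p under 0.05 (median 0.35). Of the renin-angiotensin system 4 of 13 genes were tested, among them *Agtrap*, which encodes a protein that binds the Ang II receptor. It was at 54.3, 49.1 and 20.2 CPM against 74.8, 76.9, 57.00 and 67.1 CPM and did not overlap, with IL-27R-sufficient replicate 3 the lowest (log2 fold change 0.73, SE 0.249).

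Most cell cycle genes overlapped between the genotypes. Over all genes tested, 2.1% were higher and 2.91% lower at an unadjusted p under 0.05, and 6664 of 13199 had a positive log2 fold change. The counts of the lists that follow stand beside these shares. Of 14 cyclins and cyclin-dependent kinases, 1 (*Ccnf*) was higher and 1 (*Ccne1*) lower at an unadjusted p under 0.05 (median 0.18). The value of *Ccne1* rests on IL-27R-sufficient replicate 3, with a log2 fold change of −0.94 with it and 0.12 without it. Of 22 replication licensing genes, 16 were negative and *Gins2* and *Mcm4* were lower at that level (median −0.15). Of 28 mitosis genes, 24 were positive and *Cdc20* and *Kif23* were higher (median 0.23). The summed level of the mitosis list, led by *Mki67*, was 4727, 5784 and 7254 CPM in IL-27R-sufficient and 5439, 8116, 7479 and 4130 CPM in IL-27R-deficient HPC-1, so that the lowest and the highest libraries were both IL-27R-deficient. *Ccnd1*, which encodes cyclin D1, was at 27.3, 27.3 and 42.98 CPM against 29.3, 44.8, 35.3 and 33.5 CPM, and *Cdkn1a*, the inhibitor p21, was at 5.81, 6.75 and 11.2 CPM against 4.14, 9.23, 7.95 and 10.2 CPM (log2 fold change 0.01, SE 0.534). *Trp53* was at 138, 140.1 and 147 CPM against 135, 147, 145 and 145 CPM. All 3 genes overlapped. Of 28 tested p53 targets *Sesn1*, a stress-induced inhibitor of mTORC1 signaling, was the 1 with an unadjusted p under 0.05, at 45.9, 47.2 and 18.5 CPM against 71.2, 82.4, 51.8 and 63.7 CPM (list median 0.17). *Cdkn2c* was the 1 of 8 tested CDK inhibitors with such a p (median 0.06). *Myc* was at 457, 491 and 639 CPM against 410.0, 528, 427 and 508 CPM and overlapped. Of 29 genes of the *Myc* list 24 were negative, with *Tfrc* the 1 gene at an unadjusted p under 0.05 (median −0.15).

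In the remaining lists, beside 5.01% of all genes tested at an unadjusted p under 0.05, there were 4 higher and 1 lower of 25 growth factor receptors (median 0.17), 3 higher and 1 lower of 31 tested lineage transcription factors (median −0.05) and 1 higher of 21 tested immediate early genes (median 0.20), namely *Dusp2*. Of 27 tested cholesterol synthesis genes (median 0.09) and 12 abundant noncoding RNAs (median −0.10), 0 had such a p. Of the stroma and endothelium list 4 of 20 genes were tested, and *Col4a1* was lower (median −0.31). *Igf1r*, the receptor of insulin-like growth factor 1, was at 170.3, 159 and 208 CPM in IL-27R-sufficient and at 127, 82.7, 124 and 159 CPM in IL-27R-deficient HPC-1, without overlap. The other genes named by the smallest p included *Sipa1l3*, a Rap GTPase-activating protein, at 110.1, 130.3 and 143 CPM against 73.4, 59.5, 69.1 and 96.7 CPM (log2 fold change −0.77, SE 0.178). *Arap3*, a GTPase-activating protein of Arf6 and RhoA, was at 49.4, 41.1 and 42.98 CPM against 17.1, 13.3, 18.9 and 21.6 CPM (log2 fold change −1.32, SE 0.33). *Wdr77*, a partner of the arginine methyltransferase PRMT5, was at 99.7, 99.7 and 201 CPM against 81.7, 61.9, 87.1 and 72.1 CPM. None of the 3 overlapped, which the rule that named them required. *Wdr77* was about 2-fold higher in IL-27R-sufficient replicate 3 than in replicates 1 and 2.

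Whether the genotype difference depended on Ang II was tested against PBS-infused HPC-1, 2 libraries of *Apoe*-/- and 3 of *Apoe*-/-*Il27ra*-/-. For this difference between infusions 0 genes (0%) passed an adjusted p of 0.05 by edgeR, 451 (3.42%) had an unadjusted p under 0.05, and limma-voom and DESeq2 called 0. The 2 comparisons share no library, and most of the genes named by the smallest p had the same sign after PBS. This held for 11 of the 12 genes named as higher and 11 of the 12 named as lower, beside 7582 of all 13199 genes (57.4%). Of the 12 lower genes 6 are intestinal genes, which the filter could keep through the libraries in which they are high. Their signs after PBS therefore decide nothing. Of the genes with an unadjusted p under 0.05, 215 of 277 higher (77.6%) and 245 of 384 lower ones (63.8%) kept their sign. Filter and estimate of spread used all 19 HPC-1 libraries, PBS ones included. Low genes among the higher ones, such as *Osgin1*, could also be kept through libraries in which they are high. The summed sex-linked genes, *Xist* included, were uneven between the PBS groups too. With IL-27R the sums were 233.8 and 238.7 CPM, and without it 277.4, 318.1 and 4155 CPM. The last of these stood far above the rest, as did the 3626 CPM of the female IL-27R-deficient Ang II library. Whether gender contributed to the shared signs was not tested. None of these counts of signs is therefore a separate test. Some myeloid genes had the other sign. *Ly6c2* had a log2 fold change of −0.60 after PBS, the granulocyte list had 16 of 17 members negative (median −1.68), and the monocyte and macrophage list 10 of 14 (median −0.39). After PBS *Dntt* was at 62.4 and 27.3 CPM with IL-27R and 469.6, 341 and 199 CPM without it, and the groups did not overlap (log2 fold change 2.91). *Flt3* was at 210.1 and 88.8 CPM against 601, 391 and 324 CPM after PBS, and *Mn1* was at 2.26 and 3.07 CPM against 33.1, 32.05 and 17.8 CPM. Both were higher in every *Apoe*-/-*Il27ra*-/- library. *Il1rl1* was at 24.1 and 48.5 CPM against 6.81, 7.42 and 11.5 CPM, again without overlap. *H2-Q6* did not share the sign, at 97.7 and 113 CPM with IL-27R and 123, 146 and 104 CPM without it. The Ang II *Apoe*-/-*Il27ra*+/- libraries, which were not part of the comparison, had *Dntt* at 59.6, 246, 116 and 104 CPM and *Il1rl1* at 6.96, 7.44, 17.3 and 17.7 CPM, so that *Dntt* reached into the range of both other genotypes and *Il1rl1* was below every *Apoe*-/- library.

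The genotype difference after Ang II was also compared with that in LT-HSC, which may come from the same mice. By edgeR 9 of 18013 genes (0.05%) differed at an adjusted p of 0.05, and 1776 (9.86%) had an unadjusted p under 0.05. All 9 had a KO minus WT difference that was lower in HPC-1, and all were at 0 or low in the 2 LT-HSC libraries of *Apoe*-/-. *Wdr90*, a centriole protein, was at 8.67 and 8.46 CPM in *Apoe*-/- and 38.8, 28.1, 30.5 and 36.5 CPM in *Apoe*-/-*Il27ra*-/- LT-HSC. In HPC-1 it was at 37.1, 52.6 and 51.6 CPM against 32.9, 57.7, 39.4 and 54.4 CPM and overlapped. *Sc5d*, an enzyme of cholesterol synthesis, was at 0.963 and 0.995 CPM against 30.3, 17.3, 18.8 and 19.3 CPM in LT-HSC, and at 10.8, 13.3 and 12.6 CPM against 12.7, 2.78, 10.4 and 7.07 CPM in HPC-1. The values of these genes thus set the LT-HSC groups apart and not those of HPC-1.

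Leaving out IL-27R-sufficient replicate 3 reduced the genes with an unadjusted p under 0.05 from 661 to 282, and leaving out the female IL-27R-deficient replicate 4 gave 609, with 0 genes passing the adjusted threshold in edgeR in either case. Without IL-27R-sufficient replicate 3 the log2 fold change of *Dntt* was 2.85, that of *Il1rl1* −2.08 and that of *Mri1* −1.02, close to or above the values with it in size, whereas *Adgrl1* was at −0.70, *Lgals4* at −1.21 and *Wdr77* at −0.40. The values of *Ikzf1* (0.25), *Agtrap* (0.41), *Sesn1* (0.53) and *Farsa* (−0.42) were also nearer to 0 without it.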

How the data were processed

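The authors sorted 5000 cells per sample, made stranded total RNA libraries and obtained expected counts per gene with RSEM. The deposited expected counts are whole numbers without normalization (0 values were not whole) for 38887 Ensembl genes in 36 libraries. The submitters' processing notes name Bowtie2, RSEM 1.2.31, DESeq2 and mm10, whereas the study's methods name STAR. Symbols matched 37570 genes, and positions and lengths are from GENCODE annotation of mm10. Mitochondrially encoded genes were not analysed here. Groups came from the labels, which give no gender.

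Tests used R 4.3.3 with edgeR 4.0.16 (filterByExpr, TMM, robust quasi-likelihood) over all 19 HPC-1 libraries in 6 groups, and over 36 libraries for the comparison with LT-HSC. Adjusted p-values are Benjamini-Hochberg values at 0.05. Alternatives were DESeq2 1.42.0, limma-voom with sample weights (limma 3.58.1), other filters and scaling, a fit of the compared groups, replicate numbers or Y-linked expression in the model, and each replicate left out. The fits were tested on simulated data. Correlations used log2 CPM with a prior count of 2.

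Named were *Il27ra*, the 12 genes per direction with the smallest p among those with a gene symbol other than a clone name and without overlap between groups, up to 5 per direction called by limma-voom, genes the study measured, and members of each gene list with the smallest p or highest level. Genes near *Il27ra*, and the list members *Csf1r*, *Ermap*, *Klf1*, *Rag1*, *Thy1*, *Prg2*, *Alox5* and *Hdc*, were picked out after their values were seen. Members and lists were chosen with earlier results of these data known. A fold against a group without counts is a lower bound set by 3 counts per library.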

Additional observations from a re-analysis of the deposited data

Results flagged for a closer look

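In 89 values of the 4 IL-27R-deficient Ang II libraries, 7 had a single library apart from the other 3 by Dixon's criterion, which chance alone meets in about 5% of groups. IL-27R-deficient replicate 4 stood apart in *Xist* (3626 CPM, the others at 0.342 to 1.66 CPM), in the summed sex-linked genes (3626 CPM against 210.7 to 261.5 CPM) and in *Csf3r* (232 CPM against 149 to 156 CPM). Replicate 3 had the highest sum of replication licensing genes (5034 CPM against 3473 to 3731 CPM), and replicate 1 the lowest *Trp53* (135 CPM against 145 to 147 CPM). *Clca1* was counted in replicate 2 alone (1.37 CPM) and *Cdh17*, an intestinal cadherin, in replicate 4 alone (0.373 CPM).

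The genotype difference after Ang II was another in HPC-1 than in LT-HSC for 9 genes by edgeR's test of the difference itself, all lower in HPC-1. On the log2 scale the difference was −3.83 for *Lysmd3*, −8.82 for *Gm26617*, −8.78 for ENSMUSG00000079437, −4.96 for *Sc5d*, −8.69 for *Mterf1a*, −7.88 for *Paox*, −4.41 for *4632404H12Rik*, −7.52 for *Zfp846* and −1.99 for *Wdr90*. The values beyond −7 rest on 0 counts in both *Apoe*-/- LT-HSC libraries and are no measure of size.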

How the results depend on the processing

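For IL-27R-deficient against IL-27R-sufficient Ang II HPC-1, where edgeR called 0 genes with 661 at an unadjusted p under 0.05, DESeq2 called 2 (*Arpp21* and *Gm24924*), no filter beyond a total count of 1 gave 30, only the groups compared 4 (*Dmbt1*, *Lypd8*, *Gm23444* and *Gm23472*), DESeq2 on the groups compared with Y-linked expression 74 and limma-voom 39. Upper-quartile scaling, a mean of at least 10 counts, the Y-linked covariate in edgeR and the test without its robust option gave 0, as did each replicate left out (0 to 0, with 282 to 1001 genes at an unadjusted p under 0.05). Without IL-27R-sufficient replicate 3 and IL-27R-deficient replicate 4 together, chosen after seeing the data, 0 genes passed and 318 had such a p. For the difference between Ang II and PBS, 0 genes passed except for 4 without the filter and 2 by DESeq2 on the groups compared with Y-linked expression, and leaving out replicates gave 0 to 0.

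For the difference between HPC-1 and LT-HSC, where edgeR called 9, DESeq2 called 66, no filter 192, a mean of at least 10 counts 15, only the groups compared 1, DESeq2 with Y-linked expression 113 and limma-voom 5. Leaving out replicates gave 6 to 64, with 64 and 23 without *Apoe*-/- LT-HSC replicates 1 and 2, where the lone library is assumed to vary like other groups. The causes were not tested. With replicate number as a block, 0, 0 and 8 genes passed. The numbers do not pair the IL-27R-sufficient with the IL-27R-deficient Ang II HPC-1 samples. Same-numbered libraries of these groups had correlations of 0.0571, −0.0805 and 0.0246 between their deviations from the group means across genes. A pairing with LT-HSC or among PBS samples was not checked.

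Of the 208 genes named by rule or list, 31 passed the threshold in at least 1 of 18 alternatives and 57 changed sign in at least 1. With each IL-27R-sufficient library left out, computed after seeing the data, the lower bound of the fold was 4.82 to 21.98 for *Agr2*, 11.4 to 42.6 for *Muc2*, 5.77 to 10.8 for *Clca4b*, 5.16 to 8.81 for *Krt20* and 19.6 to 40.8 for *Lypd8*. Signs turned with a call, in DESeq2 on the groups compared with Y-linked expression, for *Xist* (−3.47) and *Rn7s2* (−0.56). At 2319520 to 5212330 counts per library, levels under about 1 CPM are within counting error, and genders, the intestinal genes and IL-27R-sufficient replicate 3 are not balanced between 3 and 4 libraries.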

Other observations

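Hemoglobin transcripts varied between HPC-1 libraries without regard to genotype. *Hba-a2*, an α-globin gene with a near-identical copy that could share its counts, was at 4.36, 22.9996 and 80.8 CPM in IL-27R-sufficient and at 9.94, 227, 60.6 and 89.4 CPM in IL-27R-deficient Ang II HPC-1. *Hbb-bs*, a β-globin gene, was at 6.39, 16.3 and 58.5 CPM against 5.80, 172, 44.7 and 36.1 CPM. Replicate 2 was the highest of the IL-27R-deficient libraries in both genes and replicate 1 the lowest, and the groups overlapped. The granule gene *Ngp*, which marks maturing neutrophils, was at 2.03, 8.59 and 7.31 CPM against 4.42, 21.9, 55.1 and 0 CPM, so that IL-27R-deficient replicates 3 and 4 held the highest and the lowest value.

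*Rn7s2*, one of the copies of the signal recognition particle RNA, was at 14262, 13490.0 and 10424 CPM in IL-27R-sufficient and 10107, 8003, 7736 and 26503 CPM in IL-27R-deficient HPC-1. The sum of 12 abundant noncoding RNAs was 49272, 45333 and 29887 CPM against 34938, 28379, 27601 and 67264 CPM. The female IL-27R-deficient replicate 4, which was also the deepest library, was the highest in both.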
